A study of Mus musculus with 10 samples.

Results

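The comparison set 3 arrays of primitive neuroectodermal tumours (PNET) against 3 arrays of cultured neurospheres, together 6 of the 10 arrays of a mouse brain tumour study. All arrays with the tumour type PNET and all arrays of cultured spheres were taken. The PNET were dissected brain tumours that arose after adenovirus carrying Cre recombinase (AdCre) was injected into the brain ventricles. The spheres were pelleted cultures of the subventricular zone, the stem cell niche beside the ventricles, at passage 3, which had received AdCre in vitro for 2 of the arrays and, for 1, an adenovirus with green fluorescent protein and no Cre (AdGFP). All mice carried the genotype p53/Rb Flox-Hom on a mixed background (intercrossed C57, FVB, and mainly 129 Ola), so Cre can delete Trp53 and Rb1 in the cells it reaches, and the AdGFP sphere received no Cre. The 4 other arrays were oligo-astrocytomas of the same genotype, 1 after the same injection and 3 from grafted AdCre spheres, and entered the estimate of spread. The injection labels no cell type, so the cell in which a PNET began is not fixed by the design. The labels do not give the animals' age, or say whether arrays of a group came from separate animals or cultures, so the p-values measure only the spread between these arrays, which may be technical. Tumour against non-tumour, tissue against culture, and injection against transduction in vitro all run along the same divide here and cannot be told apart. The sample titles call the AdCre spheres transformed, and the AdGFP sphere only transduced.

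PNET are embryonal tumours of poorly differentiated neural cells. Some embryonal brain tumours carry the programme of photoreceptors and of pinealocytes, sister cell types that share the homeobox regulators OTX2 and CRX and detect light or make melatonin. Neurospheres are floating clusters of neural stem and progenitor cells, which depend on SOX2 and on growth factor receptors, and which can give rise to neurons, astrocytes and oligodendrocytes.

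The files hold 1 log2 value for each transcript cluster (the probes of a gene's transcripts) on each array, and a difference of 1 is 2-fold. Array medians lay between 5.87 and 6.06. Standard deviations over transcript clusters were 2.05 to 2.11 on the PNET arrays and 2.33 to 2.37 on the sphere arrays, and upper quartiles were 7.22 to 7.43 on PNET arrays and 7.90 to 8.0 on sphere arrays. Correlations over transcript clusters were 0.957 to 0.974 within PNET, 0.971 to 0.975 within spheres and 0.855 to 0.888 between them. With limma and Benjamini-Hochberg adjustment over all 23238 transcript clusters at a threshold of 0.05, 40.5% of transcript clusters and 6217 of 14807 named genes (42.0%) changed. Of these genes 1044 were higher in PNET (7.05% of all genes) and 5173 were lower (34.9%). The median difference over all genes was -0.32.

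The wider spread of the sphere arrays moved these counts, so the counts and medians of the gene lists below are also given after quantile normalization of the arrays to 1 distribution. After it, 34.5% of transcript clusters and 34.9% of genes changed, with 1844 genes higher in PNET (12.5%) and 3317 lower (22.4%). The list counts below are to be read against these shares, and as deposited against 7.05% higher and 34.9% lower. The median difference over all genes was then -0.17. Genes were binned by their mean deposited value over the PNET and sphere arrays. As deposited, the median difference was -0.10 for the 2142 genes with a mean under 4, and -0.63 for the 5703 genes between 6 and 8. After quantile normalization the same levels had medians of -0.21 and -0.17. The share of genes called lower between 6 and 8 was 50.0% as deposited and 27.9% after it. A bright gene that reads lower by less than 1 as deposited is therefore given below with its quantile-normalized value where the call differs.

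Against the 2 AdCre spheres alone, 37.1% of transcript clusters and 37.6% of genes changed, with 819 genes higher in PNET (5.53%) and 4752 lower (32.1%). After quantile normalization 28.6% of transcript clusters and 27.5% of genes changed, 1423 genes being higher (9.61%) and 2655 lower (17.9%). Both comparisons use the same PNET and AdCre sphere arrays and are given side by side for that reason.

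Rb1, one of the targeted genes, read 7.48, 7.48 and 7.64 on the PNET arrays, against 6.65 and 6.34 on the AdCre spheres and 8.49 on the AdGFP sphere. The PNET values lay between the 2 kinds of sphere, so the groups overlapped. The difference was 0.38 ± 0.49 (standard error) against all spheres (adjusted p = 0.578) and 1.04 against AdCre spheres (adjusted p = 0.0171). After quantile normalization it was 0.84 against all spheres. A transcript cluster sums probes along the whole gene, and whether they lie in the deleted part was not tested. Trp53 was not analysed here.

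Otx2, Crx, Sox2 and Aldh1l1 were markers set for this comparison, and their values are not an independent check of the labels. Otx2, the homeobox factor at the top of the photoreceptor and pineal programme, read 11.73, 11.69 and 11.21 on the PNET arrays, against 6.84 and 5.08 on the AdCre spheres and 5.15 on the AdGFP sphere. Crx, its partner and target in photoreceptors, read 9.69, 11.19 and 11.34 on the PNET arrays, against 4.92 and 4.47 on the AdCre spheres and 4.52 on the AdGFP sphere. All PNET arrays stood far above all spheres for both genes, with differences of 5.85 ± 0.42 for Otx2 (adjusted p = 1.90e-05) and 6.10 ± 0.40 for Crx (adjusted p = 1.15e-05). Sox2, which maintains neural stem cells, read 4.01, 5.00 and 4.35 on the PNET arrays, against 11.19 and 11.33 on the AdCre spheres and 10.96 on the AdGFP sphere (difference -6.71 ± 0.26, adjusted p = 1.40e-06). Aldh1l1, a folate enzyme that marks astrocytes and neural stem cells, read 4.59, 5.04 and 4.84 on the PNET arrays, against 11.26 and 10.57 on the AdCre spheres and 11.27 on the AdGFP sphere (difference -6.21 ± 0.38, adjusted p = 8.95e-06). The PNET values of Sox2 and Aldh1l1 lay near or below 5, close to the lower quartiles of the PNET arrays (4.40 to 4.44). In bulk samples, fewer cells of a type and less RNA per cell cannot be told apart, here and in every result that follows.

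The same markers were set against the other tumours, where 7.91% of all genes were higher in PNET and 10.9% lower. The oligo-astrocytomas averaged 4.41 for Crx and 4.80 for Otx2, so PNET exceeded them by 6.33 and 6.74 (adjusted p = 1.24e-05 and 1.20e-05). For Sox2 PNET lay below the oligo-astrocytomas, which averaged 10.05, by a difference of -5.60 (adjusted p = 2.57e-06). For Aldh1l1 the oligo-astrocytomas averaged 5.84, and the difference of -1.02 did not pass (adjusted p = 0.0941).

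The 15 largest rises were differences of 5.12 to 7.13, and each passed the test in all 6 fits that left out 1 array, after quantile normalization and against AdCre spheres alone. Crx, Otx2, Neurod1, Neurod4, Rbp3, Impg2, Cdhr1, Gnat2 and Pde6c belong to the photoreceptor lists below. The largest was Tc2n, which encodes a protein with tandem C2 domains. It read 7.51, 10.34 and 10.67 on the PNET arrays, against 2.47 and 2.34 on the AdCre spheres and 2.32 on the AdGFP sphere (difference 7.13 ± 0.67, adjusted p = 7.51e-05). PNET 1 stood almost 3 units below the other PNET arrays and still about 5 units above every sphere.

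Tph1, the tryptophan hydroxylase that begins serotonin and melatonin synthesis, read 9.73, 9.63 and 11.43 on the PNET arrays, against 4.11 and 3.96 on the AdCre spheres and 3.81 on the AdGFP sphere (difference 6.30 ± 0.41). Dmd, which encodes dystrophin and has a short form in retina, read 8.82, 11.27 and 10.46 on the PNET arrays, against 5.01 and 5.09 on the AdCre spheres and 5.08 on the AdGFP sphere (difference 5.12 ± 0.50). Both groups were far apart for these genes. Tmem215, a transmembrane protein gene, rose by 6.11 ± 0.28 and Cyyr1 by 5.26 ± 0.33, and no sphere array came within 4 units of any PNET array for either. Ctss, the lysosomal protease cathepsin S of microglia and macrophages, read 8.16, 9.43 and 9.61 on the PNET arrays, against 3.70 and 3.92 on the AdCre spheres and 3.86 on the AdGFP sphere. It was the 1 of these 15 genes that did not also exceed the oligo-astrocytomas, which averaged 9.62. For 7 of the 15 rises the spheres averaged below the lower quartile of the arrays, where the files give no detection call, so those differences may understate the ratio.

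The 15 largest falls were differences of -5.23 to -6.71, and each again passed in all 6 fits that left out 1 array, after quantile normalization and against AdCre spheres. Gpm6a, a membrane glycoprotein of neurons, read 5.91, 6.05 and 4.90 on the PNET arrays, against 11.94 and 11.74 on the AdCre spheres and 11.96 on the AdGFP sphere (difference -6.26 ± 0.53). Hepacam, a glial cell adhesion molecule, read 4.52, 5.55 and 4.90 on the PNET arrays, against 11.04 and 10.70 on the AdCre spheres and 10.91 on the AdGFP sphere (difference -5.90 ± 0.25). Ccnd1, which encodes cyclin D1, read 6.56, 6.30 and 6.38 on the PNET arrays, against 11.14 and 11.90 on the AdCre spheres and 12.07 on the AdGFP sphere (difference -5.29 ± 0.63, adjusted p = 0.000241). In each of these genes the lowest sphere lay more than 4 units above the highest PNET array. The others were Pou3f4, a neural transcription factor (-5.77 ± 0.50), Mlc1, an astrocyte membrane protein (-5.70 ± 0.32), and Agt, angiotensinogen, which astrocytes make (-5.63 ± 0.50). Nap1l5, an imprinted gene, had a difference of -5.58 ± 1.06. Plppr5, a phospholipid phosphatase relative, had -5.52, and Pantr1, a long noncoding RNA of neural progenitors, had -5.45. Fez1, an axonal transport adaptor, had -5.39, Kcnd2, a potassium channel subunit, -5.35, Shc3, a neural signalling adaptor, -5.26, and Fam181b -5.23. Of the 15 falls, 13 were also lower in PNET than in oligo-astrocytomas, all but Aldh1l1 and Nap1l5, and 5 fell below the lower quartile of the arrays in PNET.

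**Figure D1:**
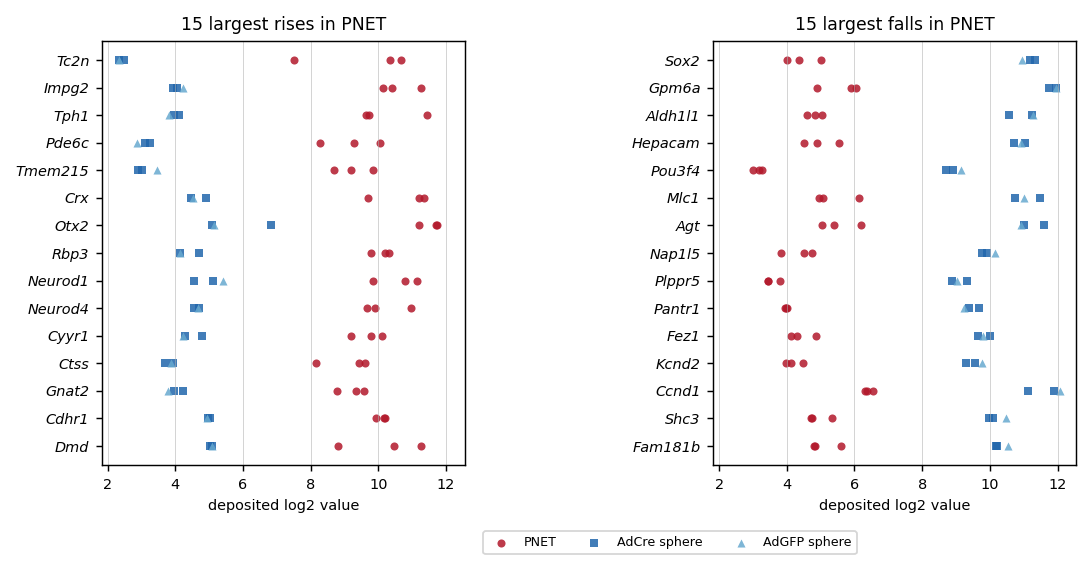
Deposited log2 values on each PNET array (circles) and each sphere array (squares for AdCre, triangles for AdGFP) of the 15 genes with the largest rises and the 15 with the largest falls. The 2 groups do not overlap for any of the 30 genes by the rule that chose them, and PNET 1 reads 7.51 for Tc2n where the other PNET read 10.34 and 10.67.

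The photoreceptor programme was followed through 3 lists. Among regulators of photoreceptor and pineal fate, 10 of 16 measured genes rose and 1 fell (7.05% and 34.9% of all genes), and 10 rose and 2 fell after quantile normalization. The median difference of the list was 1.91 as deposited and 2.10 after quantile normalization, with -0.32 and -0.17 over all genes. As deposited, 12 rose without PNET 1. The mean of the list was 7.26 on PNET 1, below PNET 2 and PNET 3 (7.69 and 8.03). Neurod1, a bHLH factor of photoreceptor survival and of neuronal precursors, read 9.83, 11.13 and 10.79 on the PNET arrays, against 4.54 and 5.10 on the AdCre spheres and 5.41 on the AdGFP sphere (difference 5.57 ± 0.37). Neurod4, its relative, read 9.67, 9.89 and 10.95 on the PNET arrays, against 4.56 and 4.71 on the AdCre spheres and 4.68 on the AdGFP sphere (difference 5.52 ± 0.45). Bsx, a homeobox gene of the pineal gland and hypothalamus, read 9.91, 8.88 and 9.14 on the PNET arrays, against 5.21 and 4.82 on the AdCre spheres and 5.10 on the AdGFP sphere (difference 4.26 ± 0.27). Rax, the homeobox factor of the eye field, rose less, by 3.23 ± 0.26. Mef2c was the regulator that fell, with 6.34, 5.26 and 6.02 on the PNET arrays, against 7.90 and 8.30 on the AdCre spheres and 7.70 on the AdGFP sphere (difference -2.10 ± 0.29). Nrl, which specifies rods, did not pass, with 4.18, 4.93 and 4.72 on the PNET arrays, against 4.91 and 5.08 on the AdCre spheres and 4.32 on the AdGFP sphere. Nrl was named after its values were seen, as were Opn1mw, Opn1sw, Aanat, Syp, Rbfox3, Nes, Pdgfra, Sox10 and Cdk4 below.

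Of the phototransduction genes, 13 of 26 measured rose and 2 fell (7.05% and 34.9% of all genes). After quantile normalization 13 rose and 0 fell (12.5% and 22.4% of all genes). The median difference was 1.06 as deposited and 0.98 after it. As deposited, 18 rose without PNET 1. The mean of the list was 5.78 on PNET 1, below PNET 2 and PNET 3 (6.35 and 6.39). Pde6c, the catalytic subunit of the cone phosphodiesterase, read 8.27, 9.28 and 10.04 on the PNET arrays, against 3.25 and 3.10 on the AdCre spheres and 2.87 on the AdGFP sphere (difference 6.12 ± 0.37). Gnat2, the cone transducin alpha subunit, read 8.78, 9.56 and 9.35 on the PNET arrays, against 4.23 and 3.96 on the AdCre spheres and 3.77 on the AdGFP sphere (difference 5.24 ± 0.25). Gnb3, the cone transducin beta subunit, read 9.40, 10.15 and 10.76 on the PNET arrays, against 5.11 and 4.92 on the AdCre spheres and 4.96 on the AdGFP sphere (difference 5.11 ± 0.41). Pde6c, Gnat2 and Gnb3, named as the largest rises of the list, were thus high on all 3 PNET arrays. The cone gamma subunit genes Gngt2 and Pde6h were also measured and were not among the 5 largest rises. Grk1, the rhodopsin kinase, rose by 3.0 ± 0.20, and Cngb3, the cone channel beta subunit, by 2.60 ± 0.16. The cone opsins did not pass. Opn1mw, the middle wavelength opsin, read 3.73, 3.62 and 3.89 on the PNET arrays, against 3.77 and 3.90 on the AdCre spheres and 3.67 on the AdGFP sphere, below the lower quartile of every array. Opn1sw, the short wavelength opsin, had a difference of 0.04 ± 0.26 (adjusted p = 0.923). Rcvrn, the calcium sensor recoverin, read 6.30, 6.27 and 6.29 on the PNET arrays, against 6.76 and 6.80 on the AdCre spheres and 7.08 on the AdGFP sphere. It fell as deposited (difference -0.60 ± 0.16, adjusted p = 0.0139) and did not pass after quantile normalization (-0.24, adjusted p = 0.284). The other gene that fell, Gnb1, the transducin beta subunit of rods, which is also broadly expressed, had -0.75 ± 0.19 as deposited and -0.41 after quantile normalization (adjusted p = 0.102). With the arrays set to a common median and spread its difference turned to 0.59.

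Of the genes for the photoreceptor matrix, disc and cilium, 9 of 16 measured rose, and 10 rose and 1 fell after quantile normalization. The median difference was 1.59 as deposited and 1.64 after it. As deposited, 11 rose without PNET 1. The mean of the list was 6.74 on PNET 1, below PNET 2 and PNET 3 (7.29 and 6.89). Impg2, a proteoglycan of the matrix around photoreceptors, read 10.15, 10.39 and 11.25 on the PNET arrays, against 4.04 and 3.93 on the AdCre spheres and 4.24 on the AdGFP sphere (difference 6.53 ± 0.28). Rbp3, the retinoid-binding protein of that matrix, read 9.79, 10.19 and 10.32 on the PNET arrays, against 4.14 and 4.71 on the AdCre spheres and 4.15 on the AdGFP sphere (difference 5.77 ± 0.21). Cdhr1, a cadherin of photoreceptor outer segments, read 9.93, 10.18 and 10.20 on the PNET arrays, against 5.01 and 4.95 on the AdCre spheres and 4.93 on the AdGFP sphere (difference 5.14 ± 0.16). The replicates of Cdhr1 lay within 0.3 units of each other in both groups. Abca4, the retinoid transporter of discs, rose by 3.58 ± 0.26 and Prph2, the disc rim protein peripherin, by 2.67 ± 0.26. In the melatonin and serotonin list, 1 of 10 measured genes rose, which was Tph1, and 1 fell. After quantile normalization 2 rose and 1 fell, and the medians were 0.11 as deposited and -0.02 after it. Maoa, the monoamine oxidase that breaks serotonin down, fell to 6.14, 6.04 and 5.61 on the PNET arrays, against 9.0 and 8.88 on the AdCre spheres and 8.94 on the AdGFP sphere (difference -3.01 ± 0.21). Aanat, the enzyme that times melatonin synthesis in pinealocytes, had a difference of 0.07 ± 0.19 (adjusted p = 0.797), with all 6 arrays between 4.48 and 5.09.

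Since these genes rose together, their promoters were searched for TAATCC, the core that CRX and OTX2 bind, on both strands of the 250 bases before to 50 after each RefSeq gene start (GRCm38.p6). It was found in 8 of 25 genes of the 3 lists that rose and have a promoter in the table (32.0%), in 6 of 20 other measured members (30.0%) and in 862 of 11855 measured genes (7.3%). Members that rose and members that did not thus held it at about the same share. Of the 15 largest rises 4 of 14 held it (28.6%), and of the 15 largest falls 0 of 12. A match describes letters and not a bound site. The stretches around the match are shown for those 4 rises and for Abca4, in the direction of transcription and ending at the gene start at the latest, with the match in capitals. In each it reads GGATTA, the reverse complement of the core.
Crx, chr7:15879956-15880079, minus strand, with 2 matches that begin 94 and 21 bases before the start: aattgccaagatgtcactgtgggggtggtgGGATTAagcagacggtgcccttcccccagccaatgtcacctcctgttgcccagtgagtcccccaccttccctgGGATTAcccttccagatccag
Otx2, chr14:48665285-48665350, minus strand, 211 bases before: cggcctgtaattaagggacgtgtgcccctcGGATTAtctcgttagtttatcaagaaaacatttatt
Rbp3, chr14:33953904-33953969, plus strand, 69 bases before: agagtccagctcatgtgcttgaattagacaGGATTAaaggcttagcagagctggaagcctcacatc
Gnat2, chr3:108093017-108093065, plus strand, 19 bases before: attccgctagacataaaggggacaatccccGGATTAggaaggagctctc
Abca4, chr3:122044372-122044437, plus strand, 58 bases before: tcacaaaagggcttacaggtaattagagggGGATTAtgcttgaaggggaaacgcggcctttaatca

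In the list of synaptic and mature neuron genes, 9 of 30 measured rose and 9 fell (7.05% and 34.9% of all genes). After quantile normalization 10 rose and 6 fell (12.5% and 22.4% of all genes). On both scales the rises exceeded the share of all genes, and the falls were near it. The median difference was -0.03 as deposited and 0.44 after it. Snap25, a protein of synaptic vesicle fusion, read 9.73, 10.78 and 10.55 on the PNET arrays, against 6.41 and 6.44 on the AdCre spheres and 6.19 on the AdGFP sphere (difference 4.01 ± 0.60). Syp, the vesicle protein synaptophysin, read 9.97, 11.08 and 11.02 on the PNET arrays, against 7.78 and 7.51 on the AdCre spheres and 7.68 on the AdGFP sphere (difference 3.03 ± 0.34). Rbfox3, a further neuron marker, did not pass and the groups overlapped (difference 0.03 ± 0.23, adjusted p = 0.932). Slc17a7, the vesicular glutamate transporter VGLUT1 that photoreceptors use, read 7.15, 9.15 and 9.55 on the PNET arrays, against 5.17 and 5.04 on the AdCre spheres and 5.30 on the AdGFP sphere (difference 3.45 ± 0.51). Chgb, a secretory granule protein, rose by 3.68 ± 0.90, Sv2b, a vesicle glycoprotein, by 3.32 ± 0.37, and Syt1, a calcium sensor of release, by 3.26 ± 0.56. Gad1, which makes GABA, went the other way, with 5.49, 4.96 and 4.41 on the PNET arrays, against 9.05 and 9.31 on the AdCre spheres and 9.0 on the AdGFP sphere (difference -4.16 ± 0.31). Syn2, a synapsin, fell by 2.45, and Camk2a, a synaptic kinase, by 1.89. Sv2a, the widely expressed relative of Sv2b, fell by 1.74, and Rab3c, a vesicle GTPase, by 1.54.

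Of the genes of neuronal precursors, 10 of 25 measured fell and 2 rose, shares near those of all genes (34.9% and 7.05%), and 7 fell and 2 rose after quantile normalization. The median was -0.58 as deposited and -0.50 after it. Insm1, a zinc finger factor of neuronal and neuroendocrine precursors, read 7.62, 7.54 and 7.75 on the PNET arrays, against 7.08 and 6.94 on the AdCre spheres and 7.13 on the AdGFP sphere (difference 0.59 ± 0.16). Ebf1, a helix-loop-helix factor of differentiating neurons, rose by 1.01 ± 0.26. Elavl4, a neuronal RNA-binding protein, read 4.03, 4.36 and 4.08 on the PNET arrays, against 7.44 and 7.72 on the AdCre spheres and 7.70 on the AdGFP sphere (difference -3.46 ± 0.28). Its relative Elavl3 had -2.96 ± 0.30, the Notch ligand Dll3 -3.04 ± 0.60, and the progenitor factor Sox4 -2.84 ± 0.36. Ebf3, a relative of Ebf1, fell while Ebf1 rose, with -1.74 ± 0.24.

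Many genes of neural stem cells, astrocytes and oligodendrocyte precursors were lower in PNET. In the neural stem and progenitor list 19 of 30 measured genes fell and 1 rose, and after quantile normalization 14 fell and 3 rose. The median difference was -1.52 as deposited and -0.95 after it. Egfr, the receptor for epidermal growth factor, read 5.66, 4.97 and 5.27 on the PNET arrays, against 10.27 and 10.40 on the AdCre spheres and 10.54 on the AdGFP sphere (difference -5.10 ± 0.33). Fabp7, the radial glial fatty acid binding protein, read 6.76, 7.48 and 7.52 on the PNET arrays, against 11.22 and 10.53 on the AdCre spheres and 10.93 on the AdGFP sphere (difference -3.64 ± 0.27). Nes, the intermediate filament nestin, read 5.39, 4.44 and 4.65 on the PNET arrays, against 7.65 and 8.15 on the AdCre spheres and 8.96 on the AdGFP sphere (difference -3.43 ± 0.35). Lfng, which modifies Notch, had -3.78 ± 0.19 and Nr2e1, the stem cell nuclear receptor TLX, -3.71 ± 0.37. Gli3, a transcription factor of hedgehog signalling, was the member that rose, with 7.01, 6.65 and 7.43 on the PNET arrays, against 6.29 and 4.56 on the AdCre spheres and 4.49 on the AdGFP sphere. Its difference was 1.91 ± 0.52 (adjusted p = 0.0162), but it passed in only 3 of the 6 fits that left out 1 array and not against AdCre spheres (1.60, adjusted p = 0.0554).

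Of the astrocyte genes 20 of 26 measured fell, with a median of -2.91 as deposited and -2.47 after quantile normalization, where 18 fell. Acsbg1, a fatty acid activating enzyme of astrocytes, read 5.20, 6.18 and 5.39 on the PNET arrays, against 10.53 and 10.26 on the AdCre spheres and 10.99 on the AdGFP sphere (difference -5.00 ± 0.31). Gpr37l1, a glial receptor, had -4.77 ± 0.43, and Fgfr3, a fibroblast growth factor receptor, -4.65 ± 0.21. Gfap, the astrocyte filament, was less clear. It read 4.55, 6.79 and 4.84 on the PNET arrays, against 10.07 and 7.75 on the AdCre spheres and 6.77 on the AdGFP sphere, so PNET 2 overlapped the AdGFP sphere. The difference was -2.80 ± 0.82 (adjusted p = 0.0224), passed in 3 of 6 fits that left out 1 array, and did not pass after quantile normalization (-2.43, adjusted p = 0.0514). Against AdCre spheres alone it was -3.52 (adjusted p = 0.00973).

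Of the oligodendrocyte precursor genes 15 of 21 measured fell, with a median of -2.21 as deposited and -2.02 after quantile normalization, where 13 fell. Olig2, the lineage factor, read 5.76, 6.15 and 5.86 on the PNET arrays, against 9.81 and 9.75 on the AdCre spheres and 10.31 on the AdGFP sphere (difference -4.03 ± 0.22). Its neighbour in function Olig1 had -4.45 ± 0.27, the proteoglycan brevican, Bcan, -5.22 ± 0.43, and Sox6 -4.13 ± 0.19. Rlbp1, a retinoid-binding protein that glia also make, had -3.51 ± 0.33. Pdgfra, the receptor of oligodendrocyte precursors, read 4.62, 4.69 and 4.54 on the PNET arrays, against 7.86 and 6.66 on the AdCre spheres and 5.98 on the AdGFP sphere (difference -2.21 ± 0.39). The oligo-astrocytomas averaged 11.01 for it, above the spheres as well as the PNET. Sox10, a further marker of oligodendrocyte precursors, did not pass against all spheres (-0.76 ± 0.43, adjusted p = 0.190). Against AdCre spheres alone Sox10 fell (-1.24, adjusted p = 0.020). Of 18 mature oligodendrocyte genes 4 fell, a share below the 34.9% of all genes, and 3 fell after quantile normalization. The median was -0.54 as deposited and -0.59 after it, and without PNET 2 or without PNET 3 the deposited count was 2. Cnp, a myelin enzyme, had -3.13 ± 0.38, Tspan2, a tetraspanin, -2.06 ± 0.67, Bcas1, a marker of early myelinating cells, -1.69 ± 0.50 and Aspa, an acetylaspartate enzyme, -1.20 ± 0.30. Without single arrays Tspan2 passed in 2 of 6 fits and Bcas1 in 3 of 6.

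**Figure D2:**
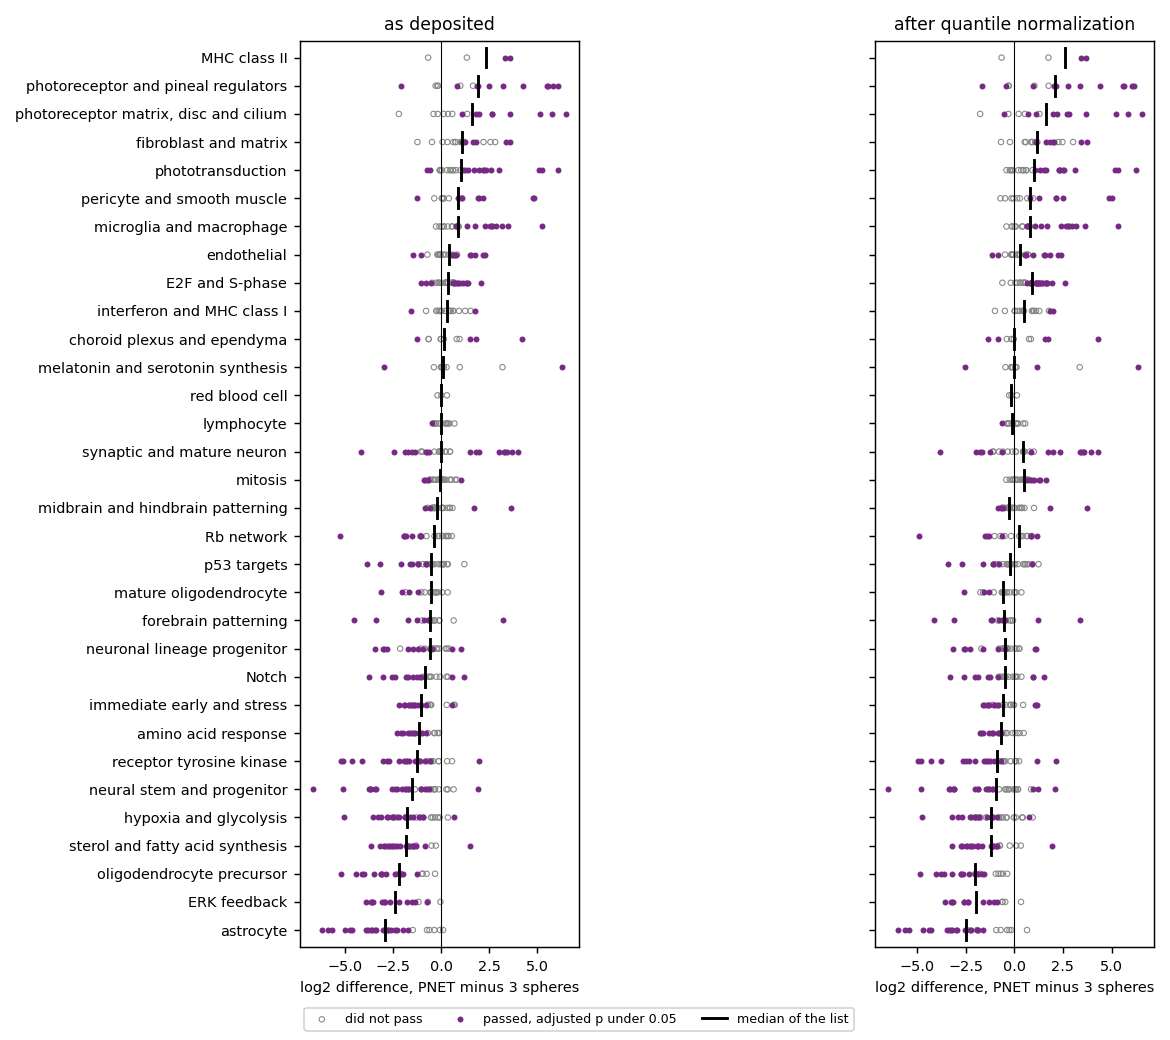
Log2 difference of PNET minus the 3 spheres for each measured member of 32 gene lists, as deposited (left) and after quantile normalization (right), with lists ordered by their deposited median (black bars). Filled points passed the test with an adjusted p under 0.05. Astrocyte members have a median of -2.91 and photoreceptor and pineal regulators one of 1.91, while E2F and S-phase members shift between the panels (0.37 and 0.93).

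Several markers of microglia, of vessels and of connective tissue were higher in PNET. Of the microglia and macrophage genes 12 of 23 measured rose, with a median of 0.89 as deposited and 0.80 after quantile normalization, where 13 rose. Their mean on an array was 5.75 to 6.44 in PNET and 4.56 to 4.72 in spheres, and it was 6.27 to 7.76 in oligo-astrocytomas. C1qb, a complement subunit of microglia, read 7.20, 7.91 and 8.64 on the PNET arrays, against 4.56 and 3.95 on the AdCre spheres and 4.74 on the AdGFP sphere (difference 3.50 ± 0.42). C1qa rose by 2.86 ± 0.53, the leukocyte tetraspanin Cd53 by 2.66 ± 0.46 and the myeloid membrane gene Ms4a6c by 3.18 ± 0.28. Of 4 measured MHC class II genes 2 rose on both scales, with medians of 2.33 as deposited and 2.59 after quantile normalization. Their mean on an array was 6.23 to 8.09 in PNET and 6.06 to 9.62 in oligo-astrocytomas. Cd74, the invariant chain, read 6.61, 8.11 and 8.82 on the PNET arrays, against 4.61 and 4.40 on the AdCre spheres and 4.57 on the AdGFP sphere (difference 3.32 ± 0.66). H2-Aa, a class II chain, rose by 3.57 ± 0.78. PNET 1 was the lowest PNET array for Cd74, H2-Aa, C1qa, C1qb and Ctss, and its MHC class II mean of 6.23 lay nearer the spheres (5.22 to 5.61) than those of PNET 2 and PNET 3 (7.51 and 8.09). The lymphocyte list had a median of -0.02 as deposited and -0.12 after quantile normalization. On each scale 1 of its 13 genes fell, as deposited Cd3d, a T cell receptor chain (-0.49 ± 0.17).

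Of 23 endothelial genes 9 rose and 2 fell (7.05% and 34.9% of all genes), but without the AdGFP sphere 5 rose. After quantile normalization 8 rose and 2 fell, and the median was 0.41 as deposited and 0.29 after it. The list mean on an array was 5.54 to 5.89 in PNET, 5.18 to 5.35 in spheres and 6.0 to 6.25 in oligo-astrocytomas. Cdh5, the endothelial cadherin, read 6.67, 6.18 and 6.71 on the PNET arrays, against 4.82 and 4.76 on the AdCre spheres and 4.60 on the AdGFP sphere (difference 1.79 ± 0.26). Emcn, a vascular sialomucin, rose by 2.29 ± 0.32, Kdr, the receptor for vascular endothelial growth factor, by 2.18 ± 0.60, Pecam1, a junction protein, by 1.55 ± 0.21 and Cd34, a surface sialomucin, by 1.51 ± 0.25. Plvap, a protein of fenestrated vessels, fell by 1.45, and Ets1, a transcription factor of endothelium and many other cells, by 1.05. Of 15 pericyte and smooth muscle genes 7 rose and 1 fell, with a median of 0.90 as deposited and 0.82 after quantile normalization, where 7 rose and 0 fell. Their mean on an array was 6.36 to 6.82 in PNET, 5.30 to 5.59 in spheres and 5.91 to 6.45 in oligo-astrocytomas. Vtn, vitronectin, read 11.16, 9.72 and 10.17 on the PNET arrays, against 5.66 and 5.51 on the AdCre spheres and 5.32 on the AdGFP sphere (difference 4.85 ± 0.71). Mylk, the myosin light chain kinase of smooth muscle, read 8.60, 10.07 and 10.38 on the PNET arrays, against 4.74 and 4.73 on the AdCre spheres and 5.25 on the AdGFP sphere (difference 4.78 ± 0.49). Mylk also exceeded the oligo-astrocytomas, by 3.80 (adjusted p = 0.000719), whereas Vtn did not pass there (1.72, adjusted p = 0.128). Pdgfrb, the pericyte receptor, rose by 1.98 ± 0.40, Acta2, smooth muscle actin, by 2.18 ± 0.57 and Rgs5, a pericyte regulator of G proteins, by 1.91 ± 0.28. Notch3, the pericyte Notch receptor, fell by 1.28.

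Of 19 fibroblast and matrix genes 6 rose, with a median of 1.09 as deposited and 1.18 after quantile normalization, where 7 rose. Their mean on an array was 6.69 to 7.55 in PNET, 5.66 to 5.96 in spheres and 6.52 to 7.85 in oligo-astrocytomas. The deposited count was 3 without the AdGFP sphere, without either AdCre sphere or without PNET 3. Bgn, the proteoglycan biglycan, read 9.06, 8.19 and 9.22 on the PNET arrays, against 5.58 and 4.89 on the AdCre spheres and 5.23 on the AdGFP sphere (difference 3.59 ± 0.34). Mgp, the matrix Gla protein, rose by 3.37 ± 0.81 and the collagen Col3a1 by 1.83 ± 0.45. Col1a2 (1.66 ± 0.53) and Col1a1 (1.25 ± 0.45, adjusted p = 0.0490) passed in only 1 of 6 fits that left out 1 array. Of 11 choroid plexus and ependyma genes 3 rose and 1 fell (7.05% and 34.9% of all genes). After quantile normalization 3 rose and 2 fell (12.5% and 22.4% of all genes). The median was 0.14 as deposited and -0.03 after it. Calml4, a calmodulin relative, read 7.43, 6.71 and 9.49 on the PNET arrays, against 3.85 and 3.61 on the AdCre spheres and 3.53 on the AdGFP sphere (difference 4.21 ± 0.58). Cldn2, a leaky junction claudin, rose by 1.83 ± 0.45 and Folr1, a folate receptor, by 1.48 ± 0.25, and Rsph1, a cilium protein, fell by 1.25. The 3 measured red blood cell genes did not pass on either scale, with medians of 0.01 as deposited and -0.15 after quantile normalization. Among them were Alas2, the erythroid haem enzyme, at 4.50, 4.40 and 4.68 on the PNET arrays, against 4.24 and 4.26 on the AdCre spheres and 4.20 on the AdGFP sphere, and Slc4a1, the band 3 anion exchanger, at a difference of -0.19 ± 0.15. The part of these cell types in the other changes was not tested.

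**Figure D3:**
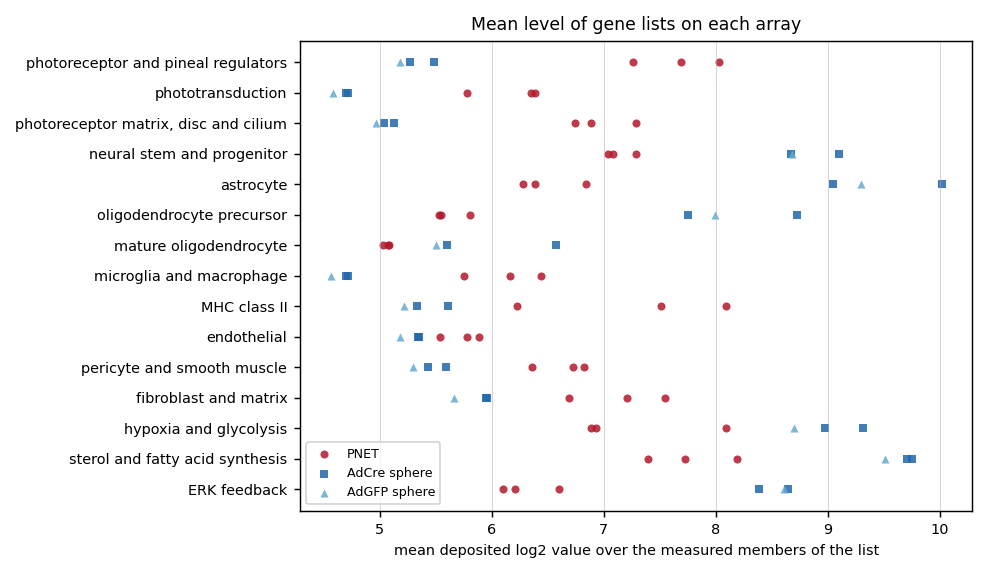
Mean deposited log2 value over the measured members of 15 gene lists on each PNET array (circles) and each sphere array (squares for AdCre, triangles for AdGFP). Microglia and macrophage means are 5.75 to 6.44 in PNET and 4.56 to 4.72 in spheres, and the hypoxia and glycolysis mean of PNET 1 (8.09) stands above PNET 2 and PNET 3 (6.89 and 6.93).

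The cell cycle genes showed how far the choice of scale carries. Of 35 measured E2F and S-phase genes 11 rose and 3 fell as deposited (7.05% and 34.9% of all genes). After quantile normalization 23 rose and 0 fell (12.5% and 22.4% of all genes). The median difference was 0.37 as deposited and 0.93 after it. The 11 became 5 without AdCre sphere 1, without the AdGFP sphere or without PNET 3, and 5 rose against AdCre spheres alone, where 22 rose after quantile normalization. The 3 falls became 1 without either AdCre sphere or without PNET 2. Ccne2, the E2F target cyclin E2, read 8.78, 9.20 and 9.62 on the PNET arrays, against 6.93 and 7.49 on the AdCre spheres and 6.91 on the AdGFP sphere (difference 2.09 ± 0.54). Cdc6, which licenses replication origins, read 7.39, 7.65 and 7.69 on the PNET arrays, against 6.01 and 6.49 on the AdCre spheres and 6.19 on the AdGFP sphere (difference 1.34 ± 0.18). E2f7, a repressor of the family, rose by 1.40 ± 0.37, thymidylate synthase, Tyms, by 1.28 ± 0.23 and DNA polymerase alpha, Pola1, by 1.14 ± 0.18. Tk1, thymidine kinase, fell by 1.06 as deposited, Pold1, a polymerase delta subunit, by 0.80 and the clamp loader gene Rfc3 by 0.54. After quantile normalization these 3 no longer passed, at -0.62, -0.19 and 0.05.

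Of 31 mitosis genes 1 rose and 4 fell as deposited, both smaller shares than those of all genes (7.05% and 34.9%). After quantile normalization 7 rose and 0 fell (12.5% and 22.4% of all genes). The 4 falls became 1 without AdCre sphere 2 or without PNET 2. The medians were -0.07 and 0.51. Mki67, the proliferation antigen Ki-67, read 9.49, 9.63 and 9.97 on the PNET arrays, against 8.33 and 8.80 on the AdCre spheres and 8.78 on the AdGFP sphere (difference 1.06 ± 0.27, adjusted p = 0.0127). It rose on both scales (1.65 after quantile normalization). The 4 falls, Aurkb, Cenpa, Nuf2 and Spc24, which serve the kinetochore and spindle, were differences of -0.83, -0.71, -0.89 and -0.71. After quantile normalization they were -0.24, -0.09, -0.42 and -0.10, and none of these 4 passed (adjusted p = 0.193 to 0.767). With a common median and spread the difference of Aurkb was 0.00.

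In the Rb network 7 of 19 measured genes fell as deposited, near the 34.9% of all genes. After quantile normalization 5 fell and 3 rose, near the 22.4% and 12.5% of all genes. The median was -0.35 as deposited and 0.25 after it. Ccnd1, given above, had the largest fall of the list. Ccnd2, cyclin D2, read 9.35, 8.83 and 9.94 on the PNET arrays, against 10.76 and 11.34 on the AdCre spheres and 11.81 on the AdGFP sphere (difference -1.93 ± 0.43). Ccnd3, cyclin D3, read 7.71, 5.67 and 5.94 on the PNET arrays, against 7.89 and 8.24 on the AdCre spheres and 7.67 on the AdGFP sphere, so PNET 1 overlapped the spheres. Its difference of -1.50 ± 0.47 passed in 2 of 6 fits that left out 1 array and not after quantile normalization (-1.03, adjusted p = 0.132). Cdkn2b, the CDK inhibitor p15, had -1.92 ± 0.25 and E2f5, a repressor E2F, -1.85 ± 0.30. Cdk4, the partner of D cyclins, read 10.07, 10.43 and 10.63 on the PNET arrays, against 11.41 and 11.38 on the AdCre spheres and 11.43 on the AdGFP sphere (difference -1.03 ± 0.19).

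**Figure D4:**
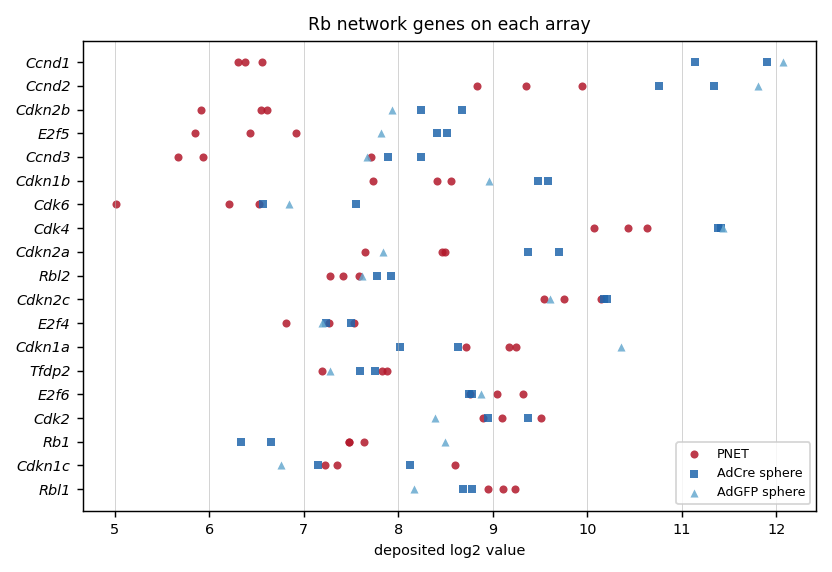
Deposited log2 values of the 19 measured Rb network genes on each PNET array (circles) and each sphere array (squares for AdCre, triangles for AdGFP), ordered by the difference. Ccnd1 lies at 6.30 to 6.56 in PNET and 11.14 to 12.07 in spheres, and for Rb1 the PNET arrays (7.48 to 7.64) lie between the AdCre spheres (6.34 and 6.65) and the AdGFP sphere (8.49).

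Of 27 p53 target genes 8 fell, a share near that of all genes (34.9%), with a median of -0.52 as deposited and -0.21 after quantile normalization, where 6 fell and 1 rose. Ddit4, an inhibitor of mTOR signalling that stress induces, read 7.31, 6.79 and 7.44 on the PNET arrays, against 10.36 and 10.43 on the AdCre spheres and 10.35 on the AdGFP sphere (difference -3.20 ± 0.20). Ephx1, an epoxide hydrolase, had -3.86 ± 0.48. The list mean on an array was 6.83 to 7.26 in PNET, 7.47 to 8.42 in spheres and 6.52 to 6.67 in oligo-astrocytomas. For Zmat3, a zinc finger target, the AdGFP sphere was highest, with 6.21, 5.92 and 6.26 on the PNET arrays, against 8.01 and 7.60 on the AdCre spheres and 9.05 on the AdGFP sphere (difference -2.09 ± 0.33). Phlda3, an inhibitor of Akt, likewise read 7.11, 6.64 and 6.67 on the PNET arrays, against 7.60 and 7.78 on the AdCre spheres and 9.66 on the AdGFP sphere. The difference of Phlda3 was -1.54 ± 0.49 against all spheres and -0.89 against AdCre spheres. Sesn2, a stress sensor, had -1.62 ± 0.30.

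Growth factor signalling genes were lower in PNET. Of 16 measured ERK feedback genes 13 fell as deposited and 12 after quantile normalization, and 13 fell in every fit that left out 1 array. The median was -2.43 as deposited and -1.99 after it. Etv5, an ETS factor that ERK signalling induces, read 5.85, 5.28 and 6.13 on the PNET arrays, against 9.22 and 9.83 on the AdCre spheres and 10.03 on the AdGFP sphere (difference -3.94 ± 0.39). Spry4, an inhibitor that feeds back on receptor signalling, read 6.19, 5.43 and 5.37 on the PNET arrays, against 8.93 and 9.26 on the AdCre spheres and 9.79 on the AdGFP sphere (difference -3.66 ± 0.37). Its relative Spry1 had -3.61 ± 0.40, the ETS factor Etv4 -3.55 ± 0.27 and the inhibitor Spred2 -3.11 ± 0.41. Of 26 receptor tyrosine kinases 16 fell and 1 rose, and 14 fell and 2 rose after quantile normalization. The median was -1.27 as deposited and -0.90 after it. Ntrk2, the receptor for brain-derived neurotrophic factor, read 7.83, 5.56 and 4.66 on the PNET arrays, against 11.57 and 11.07 on the AdCre spheres and 11.12 on the AdGFP sphere (difference -5.23 ± 0.66). Epha5, an ephrin receptor, had -4.15 ± 0.35 and Ntrk3, a neurotrophin receptor, -3.03 ± 0.19. Pdgfrb, given above with the pericyte genes, was the kinase that rose.

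Metabolic genes followed. Of 25 measured genes of sterol and fatty acid synthesis 21 fell and 1 rose, and 19 fell and 1 rose after quantile normalization. The median was -1.82 as deposited and -1.22 after it. The mean of the list on an array was 7.40 to 8.19 in PNET, 9.51 to 9.75 in spheres and 7.61 to 8.07 in oligo-astrocytomas. Hmgcs1, an early enzyme of cholesterol synthesis, read 8.19, 6.74 and 7.60 on the PNET arrays, against 11.16 and 11.25 on the AdCre spheres and 11.05 on the AdGFP sphere (difference -3.64 ± 0.31). Elovl6, which lengthens fatty acids, had -3.17 ± 0.20, Scd1, which desaturates them, -2.99 ± 0.64, Cyp51, a sterol demethylase, -2.96 ± 0.31 and Mvd, of the mevalonate pathway, -2.83 ± 0.25. Acly, the ATP citrate lyase that supplies acetyl-CoA to both pathways, rose against its list, with 11.76, 11.88 and 12.09 on the PNET arrays, against 10.39 and 10.44 on the AdCre spheres and 10.37 on the AdGFP sphere (difference 1.51 ± 0.16). The sterol response element TCACNCCAC was searched in the same promoter windows. Of the sterol genes that fell, 1 of 15 with a promoter in the table held it (6.7%), against 171 of 11855 measured genes (1.4%). That gene was Hmgcs1, shown with its match in capitals.
Hmgcs1, chr13:119690184-119690252, plus strand, 137 bases before the start: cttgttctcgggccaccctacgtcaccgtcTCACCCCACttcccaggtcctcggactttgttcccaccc

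Of 29 measured hypoxia and glycolysis genes 20 fell and 1 rose, with a median of -1.78 as deposited and -1.19 after quantile normalization, where 14 fell and 1 rose. Leaving out 1 array gave 14 to 21 falls. The mean of the list on an array was 8.09, 6.89 and 6.93 in PNET, against 8.98 and 9.32 in AdCre spheres and 8.70 in the AdGFP sphere, so PNET 1 stood about 1 unit above the other PNET. On the oligo-astrocytoma arrays the list mean was 7.29 to 7.52. Slc2a3, the glucose transporter GLUT3, read 6.23, 5.14 and 5.27 on the PNET arrays, against 10.62 and 11.11 on the AdCre spheres and 10.13 on the AdGFP sphere (difference -5.07 ± 0.34). Pdk1, which limits pyruvate oxidation, read 6.69, 4.85 and 4.76 on the PNET arrays, against 9.0 and 9.13 on the AdCre spheres and 8.90 on the AdGFP sphere (difference -3.58 ± 0.44). Pfkfb3, a regulator of glycolysis, read 8.93, 5.93 and 6.02 on the PNET arrays, against 10.30 and 10.41 on the AdCre spheres and 9.53 on the AdGFP sphere (difference -3.12 ± 0.70). PNET 1 was again the highest PNET array for Slc2a3, Pdk1 and Pfkfb3. Ppp1r3c, which promotes glycogen storage, had -3.32 ± 0.20 and Adm, the peptide adrenomedullin, -2.82 ± 0.28, although Adm was higher in PNET than in oligo-astrocytomas, by 2.76 (adjusted p = 0.000194). Pfkfb4, a relative of Pfkfb3, was the member that rose, by 0.68 ± 0.15.

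Of 18 amino acid response genes 13 fell (34.9% of all genes), and 9 fell after quantile normalization (22.4% of all genes). The medians were -1.16 and -0.68. The list mean on an array was 6.97 to 7.60 in PNET, 8.03 to 8.73 in spheres and 7.20 to 8.26 in oligo-astrocytomas. Without PNET 2 the deposited count was 9. Aldh18a1, of proline synthesis, had -2.31 ± 0.38, Psph, of serine synthesis, -2.08 ± 0.29, Slc7a11, the cystine transporter, -1.97 ± 0.42 and Cebpb, a stress-responsive transcription factor, -1.72 ± 0.34. Of 21 immediate early and stress genes 12 fell and 1 rose (34.9% and 7.05% of all genes). After quantile normalization 9 fell and 3 rose (22.4% and 12.5% of all genes). The median was -1.07 as deposited and -0.59 after it. The list mean on an array was 6.88 to 7.16 in PNET, 7.77 to 8.07 in spheres and 6.47 to 6.81 in oligo-astrocytomas. Klf6 had -2.18 ± 0.30, Egr1 -1.93 ± 0.30, Nr4a1 -1.89 ± 0.38 and Egr3 -1.68 ± 0.21, all transcription factors that stimuli induce. Fos fell by 1.67 as deposited and did not pass after quantile normalization (-1.12, adjusted p = 0.109). Hsph1, a heat shock protein, rose by 0.59 as deposited (adjusted p = 0.0268), with 9.25, 8.91 and 9.29 on the PNET arrays, against 8.54 and 8.56 on the AdCre spheres and 8.58 on the AdGFP sphere, and passed in 1 of 6 fits that left out 1 array. Of 18 interferon and MHC class I genes 1 rose and 1 fell, together a smaller share than the 42.0% of all genes. After quantile normalization 2 rose and 0 fell. The median was 0.29 as deposited and 0.48 after it. Ifih1, a sensor of double-stranded RNA, read 6.14, 8.29 and 8.10 on the PNET arrays, against 6.52 and 6.02 on the AdCre spheres and 4.72 on the AdGFP sphere (difference 1.76 ± 0.59, adjusted p = 0.0384). PNET 1 overlapped the spheres, and the call of Ifih1 held in 2 of 6 fits that left out 1 array. Ifit2, an interferon-induced gene, fell by 1.56.

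Of 16 forebrain patterning genes 7 fell and 1 rose, the riser being Rax, shares near those of all genes (34.9% and 7.05%). After quantile normalization 9 fell and 2 rose (22.4% and 12.5% of all genes), so the falls then exceeded the share of all genes. The median was -0.57 as deposited and -0.56 after it. Meis2, a homeobox factor of the lateral forebrain, read 4.17, 6.0 and 4.21 on the PNET arrays, against 9.38 and 9.33 on the AdCre spheres and 9.26 on the AdGFP sphere (difference -4.53 ± 0.53). Emx2, a factor of the dorsal forebrain, had -3.42 ± 0.29, Lhx2, a factor of cortex and eye, -1.72 ± 0.30, and the interneuron factors Dlx1 and Dlx2 had -1.28 ± 0.27 and -0.88 ± 0.17. Of 27 midbrain and hindbrain patterning genes 2 rose and 2 fell, together a smaller share than the 42.0% of all genes, and 2 rose and 3 fell after quantile normalization. The median was -0.24 as deposited and -0.29 after it. Pax3, a factor of the dorsal neural tube, read 8.29, 7.66 and 8.53 on the PNET arrays, against 4.50 and 4.53 on the AdCre spheres and 4.57 on the AdGFP sphere (difference 3.63 ± 0.22). Lhx1, a LIM homeobox factor, rose by 1.69 ± 0.28, while Gbx2, which positions the hindbrain border, fell by 0.84 and Irx5, an Iroquois factor, by 0.59. Pax3 and Lhx1 also exceeded the oligo-astrocytomas, by 3.94 and 2.04. Of 21 Notch genes 10 fell and 2 rose (34.9% and 7.05% of all genes). After quantile normalization 7 fell and 3 rose (22.4% and 12.5% of all genes). The median was -0.87 as deposited and -0.50 after it. Hes5, a Notch target, read 6.70, 6.92 and 6.63 on the PNET arrays, against 10.66 and 8.68 on the AdCre spheres and 8.65 on the AdGFP sphere (difference -2.58 ± 0.47). Notch1, the receptor, had -2.43 ± 0.35 and Hey1, another target, -1.82 ± 0.20. Jag2, a ligand, rose by 1.19 ± 0.16 and Numb, an inhibitor of Notch, by 0.54 ± 0.14.

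Among genes that passed against all spheres or against AdCre spheres, the differences between both comparisons were largest in each direction for the following genes, beside Rb1, Gfap and Phlda3 above. Cxcl10, an interferon-induced chemokine, read 5.69, 7.20 and 7.82 on the PNET arrays, against 10.06 and 9.0 on the AdCre spheres and 6.01 on the AdGFP sphere. It did not pass against all spheres (-1.45 ± 0.93, adjusted p = 0.246) and fell against AdCre spheres (-2.63, adjusted p = 0.0118). Pdk4, a kinase that limits pyruvate oxidation, had -1.56 against all spheres (adjusted p = 0.0823) and -2.14 against AdCre spheres (adjusted p = 0.0278). Tcim, a small regulator of Wnt signalling, had -2.44 against all spheres and -3.30 against AdCre spheres, and Cdo1, a cysteine dioxygenase, had -2.21 and -2.78 in the same order. For Gria3, a glutamate receptor subunit, the AdGFP sphere was the highest, with 3.59, 3.83 and 3.80 on the PNET arrays, against 6.37 and 6.05 on the AdCre spheres and 8.41 on the AdGFP sphere. The difference of Gria3 was -3.20 against all spheres and -2.47 against AdCre spheres. Ak1, an adenylate kinase, had -1.92 and -1.27 in the same order, and Htr5b, a serotonin receptor, -1.81 and -1.18.

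The calls of 26 named genes against all spheres were lost when 1 array was left out, and for each the array with the largest effect is given. Without PNET 2 the adjusted p was 0.131 for Ifih1, 0.122 for Irx5, 0.118 for Rfc3, 0.102 for Ccnd3 and 0.100 for Tcim, and between 0.0501 (Ets1) and 0.0876 (Phlda3) for Rab3c, Nuf2, Ets1 and Phlda3. Without PNET 3 it was 0.144 for Col1a1, 0.109 for Col1a2, 0.0854 for Hsph1 and 0.0737 for Gfap, and between 0.0534 (E2f7) and 0.0649 (Bcas1) for E2f7, Htr5b and Bcas1. Without PNET 1 it was 0.122 for Cd3d and 0.0573 for Kdr. Without AdCre sphere 2 it was 0.122 for Spc24, 0.116 for Cenpa, 0.0907 for Pold1, 0.0584 for Gli3 and 0.0578 for Insm1, and Cenpa lost its call in each of the 6 fits. Without AdCre sphere 1 it was 0.109 for Tspan2 and 0.0672 for Fos, and without the AdGFP sphere 0.0508 for Rcvrn. All these genes had differences of less than 3.0 in size, smaller than any of the 15 largest rises and falls. Beside the genes described above with both values, quantile normalization ended the calls against all spheres of Ets1 (-0.48, adjusted p = 0.215), Phlda3 (-0.99, adjusted p = 0.161), Ak1 (-1.34, adjusted p = 0.0787), Notch3 (-0.72, adjusted p = 0.0700), Ifit2 (adjusted p = 0.0657) and Tspan2 (-1.75, adjusted p = 0.0620).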

How the data were processed

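RNA of 10 mouse samples was measured on 1-colour Affymetrix mouse exon arrays. The deposited values are log2 expression per transcript cluster, which the authors made with Partek and RMA on build mm8, per the submitters' processing notes, with versions not given in the sources used here. RMA corrects background, normalizes quantiles and sums probes, yet the arrays differ in spread. No depth or detection call comes with arrays, so their number limits the precision.

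Values were used as deposited. Differences were tested in limma 3.58.1 (R 4.3.3, lmFit followed by eBayes) on all 10 arrays, in 4 groups for PNET minus the 3 spheres and minus the oligo-astrocytomas, and in 5 groups for PNET minus the 2 AdCre spheres. Residual degrees of freedom were 6 and 5. A group of 1 array took its spread from the others. Tests were two-sided, with Benjamini-Hochberg adjustment over 23238 transcript clusters and a threshold of 0.05. The annotation names 1 gene for 14939 of these, several for 989 and none for 7310, and the brightest cluster stood for each of the 131 genes with more than 1. The models were also run on simulated arrays with independent noise around 1 mean for each cluster. Those lack the wider spread of the sphere arrays, so the simulation cannot vouch for the calls.

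Named genes were the 15 largest rises and falls of genes that passed, with no overlap between the arrays of both groups and without predicted genes, the markers, Rb1, up to 5 members of each list per direction (the 2 largest where none passed), and the 5 in each direction with the largest change between the comparison with AdCre spheres and that with all spheres, among genes that passed in either. The 32 lists hold 740 genes, of which 636 were measured. Members, lists and tests were chosen with earlier results of these data known. Alternatives were quantile normalization, centring, a common median and spread, a filter on dim clusters, other variance models and groupings, a replicate block and leaving out each array. Promoter sequences are from RefSeq (GRCm38.p6), which is not the arrays' build.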

Additional observations from a re-analysis of the deposited data

How the results depend on the processing

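As deposited, 9411 transcript clusters changed against all spheres and 8611 against AdCre spheres. Leaving out 1 array in turn gave 7585 to 8852 against all spheres and 5140 to 8237 against AdCre spheres, the lowest in both without AdCre sphere 1. With the sample number as a replicate block, fitted on PNET and spheres only, 5985 and 4295 changed. The labels do not say whether equal numbers pair the samples. Deviations of PNET and AdCre spheres with the same number correlated at -0.033 and -0.058. The deviations of only 2 AdCre spheres mirror each other, so these correlations cannot decide on pairing. Without the oligo-astrocytomas in the fit the counts were 9030 and 7921. The share of changed clusters that were higher in PNET was 31.0% against all spheres as deposited, 48.0% after quantile normalization, 38.7% after centring on the median and 39.9% with a common median and spread, and 30.2%, 49.1%, 39.0% and 41.1% against AdCre spheres. The median difference over all genes against all spheres was -0.32 as deposited, and -0.17, -0.20 and -0.27 under these scalings. Of the 183 named genes, some of which were not called, quantile normalization left 165 on the same side of the threshold against all spheres, and 17 lost the call. Rfc3 turned to 0.05 after it. With a common median and spread Aurkb was at 0.00 and Gnb1 turned to 0.59 against all spheres and 0.63 against AdCre spheres, and 167 genes stayed on the same side of the threshold. With the block 154 stayed there and 29 lost the call. The causes were not tested. Low signal limits falls that end below the lower quartile and rises that start below it, and with 3 arrays in each group small changes can be missed.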

Other observations

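The 3 PNET arrays also differed among themselves. Over all genes the median range within a group was 0.46 for PNET and 0.34 for spheres, and 291 genes had a range over 2 within PNET, against 92 within spheres. In 211 of those 291 genes PNET 1 stood apart from the other PNET by more than the rest of the range, above them in 153 and below in 58. The genes given here were taken from the widest ranges after their values were seen, and there was no test. C1qtnf3, a secreted relative of complement C1q, read 9.59, 3.84 and 3.94 on the PNET arrays, against 3.96 and 4.52 on the AdCre spheres and 3.91 on the AdGFP sphere. The imprinted neighbours Igf2 and H19 were both highest in PNET 1. Igf2, a fetal growth factor, read 11.29, 7.53 and 6.89 on the PNET arrays, against 5.77 and 5.71 on the AdCre spheres and 5.79 on the AdGFP sphere. H19, a noncoding RNA, read 11.08, 6.05 and 5.92 on the PNET arrays, against 7.43 and 7.62 on the AdCre spheres and 5.69 on the AdGFP sphere. Ddc, which makes serotonin and dopamine from their precursors, read 11.64, 8.21 and 6.52 on the PNET arrays, against 5.89 and 5.47 on the AdCre spheres and 5.40 on the AdGFP sphere. Egln3, an oxygen sensor that hypoxia induces, read 9.61, 4.97 and 5.02 on the PNET arrays, against 8.91 and 9.0 on the AdCre spheres and 9.02 on the AdGFP sphere. In PNET 1 it thus lay with the spheres.

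Other genes were lowest in PNET 1. Apod, a lipid carrier, read 4.92, 9.46 and 9.32 on the PNET arrays, against 5.06 and 5.05 on the AdCre spheres and 5.05 on the AdGFP sphere. Thrb, the thyroid hormone receptor that cones use to set their opsin, read 4.43, 6.98 and 8.86 on the PNET arrays, against 5.57 and 4.6 on the AdCre spheres and 5.13 on the AdGFP sphere. The spheres also had genes that single arrays set apart. Lcn2, a secreted iron carrier protein, read 7.35, 5.64 and 4.77 on the PNET arrays, against 5.33 and 9.68 on the AdCre spheres and 4.37 on the AdGFP sphere. Ifit1, an interferon-induced gene, read 4.76, 7.24 and 7.78 on the PNET arrays, against 7.62 and 4.99 on the AdCre spheres and 2.58 on the AdGFP sphere. Eda2r, a p53-induced receptor, read 5.16, 7.42 and 5.69 on the PNET arrays, against 4.90 and 5.34 on the AdCre spheres and 9.57 on the AdGFP sphere.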
